A study of Mus musculus with 55 samples.

Results

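Crushed and contralateral optic nerve heads (ONHs) of 2 times were compared to find which genes turned the direction of their response to a nerve crush between 1 day and 3 weeks. They make up 20 of the 55 samples in the series, and were chosen as the crushed and contralateral samples of these times. A group consisted of 5 biological replicates, for each of which the ONHs of 2 mice were combined. The left optic nerve of female C57Bl/6 mice, 6 to 8 weeks old at surgery, was crushed for 10 s at 1 mm behind the globe, and the right eye had no operation. The groups were therefore crushed ONHs after 3 weeks of recovery, their contralateral controls, crushed ONHs after 1 day and their contralateral controls, and left and right ONHs of the same mice formed a pair, taken here by the replicate number. The 5 samples of naïve mice, which had surgery on neither eye, served as a further baseline. The measured value is the difference of differences on the log2 scale, (crushed minus contralateral at 3 weeks) minus (crushed minus contralateral at 1 day), here called the reversal. A positive reversal means that the crush effect, crushed minus contralateral, was higher at 3 weeks than at 1 day.

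The ONH is where axons of retinal ganglion cells leave the eye, and in the mouse these axons run through a lamina built by astrocytes. It also holds microglia, vessels, a border with the meninges and, at its far end, the first myelin. A crush sets off an early phase of leukocyte entry, cytokine release and cell division, followed by axon loss, debris clearance by phagocytes and remodelling of the matrix. The tissue was measured whole, so that fewer cells of a type and less RNA per cell cannot be told apart. The collected tissue took in the first part of the myelination transition zone and was freed of sclera and meningeal sheath.

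RNA was measured on Affymetrix arrays, which give one linear intensity for each probe set. The median intensity of the 20 arrays lay between 467 and 523, and the median correlation of an array with its group was 0.976 to 0.993. The defining glial markers were bright in all groups, with Gfap, the astrocyte filament protein, at 6722 to 8630 in crushed and 7946 to 9622 in contralateral ONHs at 3 weeks, and at 7008 to 10185 in crushed and 10134 to 11133 in contralateral ONHs at 1 day. Transcripts of photoreceptors, which belong to the adjoining retina, varied widely within groups. The summed intensity of 18 such genes was 11636 to 85916 in crushed and 12734 to 88305 in contralateral ONHs at 3 weeks, and 11782 to 83511 in crushed and 13576 to 26891 in contralateral ONHs at 1 day. Their median reversal was -1.12, and none of the 18 genes was called for it. The 9 markers of skeletal muscle also varied, with a sum of 1738 to 9666 in crushed and 2093 to 15050 in contralateral ONHs at 3 weeks, and of 455 to 1805 in crushed and 1502 to 5545 in contralateral ONHs at 1 day, and none of them was called. The number of arrays limits the precision of all values.

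Of 19313 probe sets tested, 2473 or 12.8% were called for the reversal, of which 1314 (6.8%) were higher and 1159 (6%) were lower at 3 weeks. A call required an adjusted p under 0.05 over all probe sets in limma and a difference of at least 1 on the log2 scale. The crush effect itself was called for 793 probe sets or 4.11% at 3 weeks and for 2792 or 14.5% at 1 day. With one probe set for each of 10768 genes, the brightest, 832 genes (7.73%) were higher and 610 (5.66%) lower at 3 weeks. Most of this difference lay in the crushed ONHs. Among the 1314 probe sets with a higher crush effect at 3 weeks, the crushed ONHs of 3 weeks were themselves called above those of 1 day for 1028, where 8.67% of all probe sets were, and the median difference was 1.40 in crushed and -0.06 in contralateral ONHs. Among the 1159 with a lower one, 904 were called lower in crushed ONHs, where 7.11% of all were, with medians of -1.40 in crushed and 0.13 in contralateral ONHs. Over all probe sets, crushed ONHs differed between 3 weeks and 1 day for 3047 or 15.8%, and contralateral ONHs for 291 or 1.51%.

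The following patterns describe the genes called at either time. A sign change was a gene called at both times in opposite directions, and an overshoot one called at 1 day that had the opposite sign at 3 weeks with an adjusted p under 0.05 but less than a 2-fold change. A return was a gene called at 1 day with a reversal called toward 0 and no such p at 3 weeks, a kept gene was called at both times in one direction, and a late gene was called at 3 weeks only. At 3 weeks 297 genes (2.76%) were called higher and 192 (1.78%) lower in crushed ONHs, and at 1 day 739 (6.86%) higher and 883 (8.2%) lower. Of the 883 genes lower at 1 day, 36 changed sign, 53 overshot, 376 returned and 120 were kept. Of the 739 genes higher at 1 day, 1 changed sign, 16 overshot, 378 returned and 113 were kept. The remaining 298 and 231 genes of 1 day fell in none of these patterns. A further 148 genes were late and higher at 3 weeks, and 71 late and lower. Genes that fell at 1 day thus made up 36 of the 37 sign changes (0.334% of all genes, against 0.00929% for the other direction). Returns were nearly equal in number in both directions, but were 42.58% of the genes lower and 51.15% of those higher at 1 day. The imbalance of sign changes was smaller without the 2-fold limit, but remained. With the limit 51 probe sets changed sign toward higher levels and 2 toward lower ones. At any fold, 373 probe sets changed sign toward higher levels and 241 toward lower ones, and an opposite sign at 3 weeks, whatever its p, was found for 30.92% of genes lower and 25.03% of genes higher at 1 day.

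**Figure D1:**
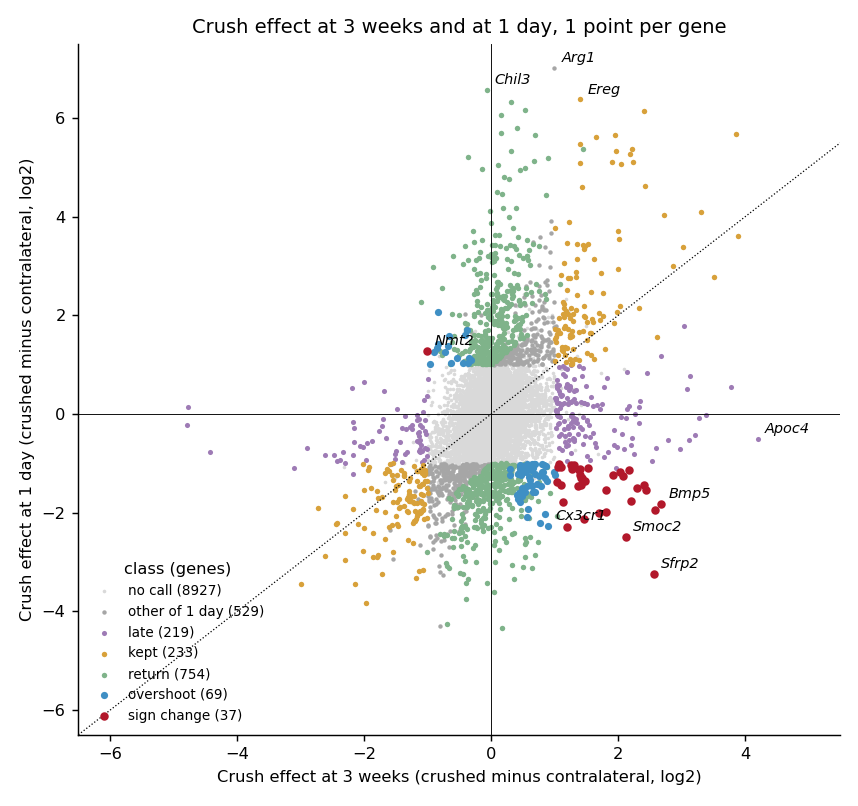
Crush effect (crushed minus contralateral, log2) at 3 weeks on the horizontal axis and at 1 day on the vertical axis, with 1 point for each of 10768 genes coloured by pattern. The dotted line marks equal effects. The 36 red points at the lower right changed sign from lower at 1 day to higher at 3 weeks, and Nmt2 at the upper left is the only gene that did the opposite.

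The 36 genes with a sign change toward higher levels had a crush effect of 1.03 to 2.68 at 3 weeks and of -3.24 to -1.01 at 1 day, with medians of 1.45 and -1.37, and a median reversal of 2.89. They were chosen by these values, which are therefore a description. Many encode secreted or matrix proteins (Sfrp2, Smoc2, Aspn, Bmp5, Col14a1, Postn, Ltbp4, Mmp2, Adamts10, Ccn3 and Pcsk5). Others encode transporters (Slc47a1, Slc4a10), adhesion proteins of cell junctions (Cdh1, Dsg2), microglial receptors (Fcrls, Trem2) or enzymes of amino acid, lipid and drug metabolism (Dmgdh, Cdo1, Eci3, Cyp2s1, Cbr2 and Sptssb). These groupings were made after the values were seen. In 31 of the 36 genes all 5 pairs showed the direction at both times, and in all 36 the pair differences of the 2 times did not overlap, as also in 79.8% of all probe sets called higher.

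Smoc2 encodes a secreted calcium-binding protein of the matrix. Its intensity was 1539, 1139, 1562, 1618 and 1126 in crushed ONHs at 3 weeks, against 259.6, 496, 284, 221 and 392 in their contralateral controls. At 1 day it was 83.2, 58.8, 67.4, 49.5 and 47.9 in crushed ONHs, against 242, 357, 379, 227 and 576 in contralateral ONHs, and naïve ONHs had 197, 305, 409.6, 233 and 258. All crushed samples of 3 weeks lay above every control, and all those of 1 day below. The crush effect was 2.12 at 3 weeks and -2.48 at 1 day, and the reversal was 4.61 (SE 0.35, n = 5 pairs at each time, adjusted p from limma 2.0e-08).

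Bmp5 is a ligand of the bone morphogenetic protein family. It had intensities of 1451, 741, 1359, 1085 and 951 in crushed ONHs at 3 weeks, against 163, 288, 163, 129.8 and 141 in contralateral ONHs. At 1 day crushed ONHs had 32.7, 18.6, 37.3, 40.2 and 30.8, against 197, 100.2, 75.1, 111 and 99.6 in contralateral ONHs, while naïve ONHs had 177, 168, 112, 167 and 269.8. The groups did not overlap at either time. The crushed samples of 1 day were near the floor of 20 below which intensities were not resolved. Only 1 of them (18.6) lay under it, so that the floor understates the fall in that sample alone. The crush effect was 2.68 at 3 weeks and -1.82 at 1 day, with a reversal of 4.49 (SE 0.48, adjusted p 6.6e-07).

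Sfrp2, a secreted inhibitor and modulator of Wnt signalling, had the largest reversal and the largest error of the sign-change genes. Crushed ONHs had 2883, 4492, 5741, 3231 and 4955 at 3 weeks, against 2615, 1933, 69.6, 520.1 and 915 in contralateral ONHs. At 1 day crushed ONHs had 32.1, 43.3, 76.2, 115 and 72.3, against 1617, 72.8, 624, 614 and 1446 in contralateral ONHs, and naïve ONHs had 1443, 688, 2645, 976 and 759. The contralateral samples varied more than the crushed ones, and 1 of them at each time was near 70. At 1 day the lowest contralateral sample lay within the range of the crushed ones. The reversal was 5.79 (SE 1.23, adjusted p 0.00098), with crush effects of 2.56 at 3 weeks (adjusted p 0.039) and -3.24 at 1 day (adjusted p 0.0036). The call at 3 weeks was lost without replicates 3, 4 or 5 of that time (effects of 1.61, 2.54 and 2.59, adjusted p 0.23, 0.089 and 0.084), with no filter on low values (adjusted p 0.064) and without the trend (0.053).

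Both transporters among these genes had large reversals. Slc47a1 encodes MATE1, an exporter of organic cations and drugs. It had 5711, 3663, 5887, 4201 and 4966 in crushed ONHs at 3 weeks, against 484, 1376, 651, 508 and 1549 in contralateral ONHs, and 78.3, 158, 56.5, 53.8 and 68.8 in crushed ONHs at 1 day, against 509, 220.5, 160.3, 492 and 244 in contralateral ONHs. The groups did not overlap at either time. The contralateral ONHs of 3 weeks were also called above those of 1 day, by 1.46, which makes the reversal of 4.52 (SE 0.53, adjusted p 2.0e-06) smaller than the difference between the crushed groups alone. Slc4a10, a sodium-coupled bicarbonate transporter, behaved likewise, with a crush effect of 2.29 at 3 weeks and -1.51 at 1 day and a reversal of 3.80 (SE 0.65, adjusted p 0.00013), and its contralateral ONHs were called 1.25 higher at 3 weeks. In 1 of 5 pairs at 1 day, Slc4a10 was higher in the crushed ONH, by 1.07, and without replicate 1 of 1 day its effect there was -1.08 with an adjusted p of 0.069.

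Fcrls, a receptor-like protein typical of mouse microglia, had 2770.5, 3559, 3126, 2412 and 2686 in crushed ONHs at 3 weeks, against 726, 584, 335, 477 and 644 in contralateral ONHs. At 1 day crushed ONHs had 298, 111, 288, 404 and 147, against 606, 568, 818, 559 and 736 in contralateral ONHs. No value of one side reached the other at either time, and the reversal was 3.96 (SE 0.33, adjusted p 4.6e-08). Trem2, the lipid-sensing receptor of phagocytic microglia, had a crush effect of 1.40 at 3 weeks and -1.11 at 1 day, and a reversal of 2.51 (SE 0.39, adjusted p 4.2e-05).

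Aoc3 (an amine oxidase of vessel walls and stromal cells) had a reversal of 3.95 (SE 0.57), Dmgdh (a mitochondrial enzyme that breaks down dimethylglycine) of 3.85 (SE 0.41), Aspn (asporin, a small leucine-rich matrix protein) of 3.79 (SE 0.53) and Tfcp2l1 (a transcription factor of epithelia and stem cells) of 3.70 (SE 0.40). The highest adjusted p of these 4 was 2.1e-05. Dmgdh was the dimmest of the 4, at 306, 246, 275, 484 and 236 in crushed and 41.6, 49.4, 32.6, 92.4 and 90.5 in contralateral ONHs at 3 weeks. At 1 day its crushed ONHs had 38.1, 18.9, 23.9, 13.5 and 23.8, with 2 samples below the floor, against 90.6, 32.3, 50.3, 102 and 83.8 in contralateral ONHs, so that the sides overlapped at 1 day and not at 3 weeks. At a floor of 50 its effect at 1 day was -0.53 and was not called. Of the 36 genes, 1 had a whole group below the floor, Cyp4a12a in crushed ONHs at 1 day.

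**Figure D2:**
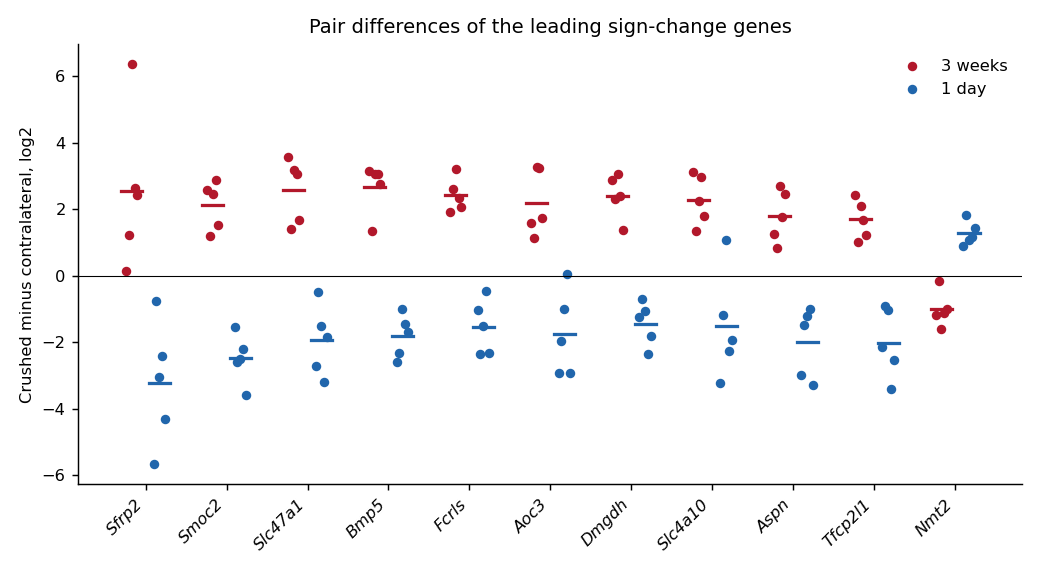
Crushed minus contralateral log2 intensity of each pair at 3 weeks (red) and at 1 day (blue) for the 10 sign-change genes with the largest positive reversal and for Nmt2. Points are pairs (5 at each time), and bars are their means. The red points of Smoc2 lie between 1.20 and 2.87 and the blue between -3.59 and -1.54, and Nmt2 shows the opposite order.

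Nmt2, an enzyme that attaches myristate to proteins, was the only gene with a sign change in the other direction. Its intensity was 41.1, 75.1, 32.3, 54.8 and 39.3 in crushed ONHs at 3 weeks, against 94.0, 83.3, 97.7, 119 and 78.0 in contralateral ONHs. At 1 day it was 197, 299.6, 208, 164 and 222 in crushed ONHs, against 106, 83.6, 98.3, 72.7 and 81.3 in contralateral ONHs, and naïve ONHs had 72.4, 65.0, 82.5, 85.8 and 85.2. The groups did not overlap at either time, although the values were low throughout. The crush effect was -1.01 at 3 weeks and 1.29 at 1 day, and the reversal was -2.30 (SE 0.29, adjusted p 4.2e-06). The effect at 3 weeks lay on the threshold, and Nmt2 was no longer a sign change in 5 of 20 alternatives, with -0.96, -0.86 and -0.98 at 3 weeks without replicates 1, 3 and 4 of that time, -0.76 at a floor of 50 and -0.98 with the photoreceptor level as a covariate. Crushed ONHs were called above naïve ONHs at 1 day, as 7.34% of all probe sets were. At 3 weeks they were lower by less than 2-fold (-0.74, adjusted p 0.0054).

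The classes depend on a threshold of 1 at both times. Just inside it lay Tspan8, a tetraspanin, with 1.03 at 3 weeks and -1.38 at 1 day, and Cidea, a lipid droplet protein, with 1.07 and -1.01 at these times. Just outside lay Abcb1a, the P-glycoprotein of the blood-brain barrier, with 0.98 at 3 weeks and -0.91 at 1 day, and C1s1, a protease of the classical complement pathway, with 0.92 and -0.98. Both had called reversals, of 1.89 (SE 0.17) and 1.90 (SE 0.35). Of 18 further probe sets for 12 of the sign-change genes, 9 changed sign in the same direction, 16 were called for the reversal in that direction and 2 were not called. Over all probe sets 51 (0.264%) changed sign in this direction and 2 (0.0104%) in the other. Of these, 7 belonged to genes whose brightest probe set did not change sign, or named no single gene. Among the 7, Tfrc, the transferrin receptor, was lower at 3 weeks and higher at 1 day.

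Naïve ONHs, which took no part in the calls that chose these genes, gave a second baseline. The crushed samples are those by which the genes were chosen. High counts against naïve ONHs therefore follow in large part from the choice and are a description. Crushed ONHs at 3 weeks were called above naïve ONHs for 31 of the 36 genes, where 3.71% of all probe sets were. Crushed ONHs at 1 day were called below naïve ONHs for 32 of them, where 7.07% of all were, and 27 of the 36 were called on both sides of the naïve level. The median difference from naïve ONHs was 1.57 at 3 weeks and -1.62 at 1 day. The 5 genes not called at 3 weeks were Sfrp2, Postn, Mmp2, Ltbp4 and Cdh1. Contralateral ONHs were called higher at 3 weeks than at 1 day for 3 of the 36 genes (Slc47a1, Slc4a10 and Serpinb6c), where 0.74% of all probe sets were, and lower for none, where 0.766% were.

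**Figure D3:**
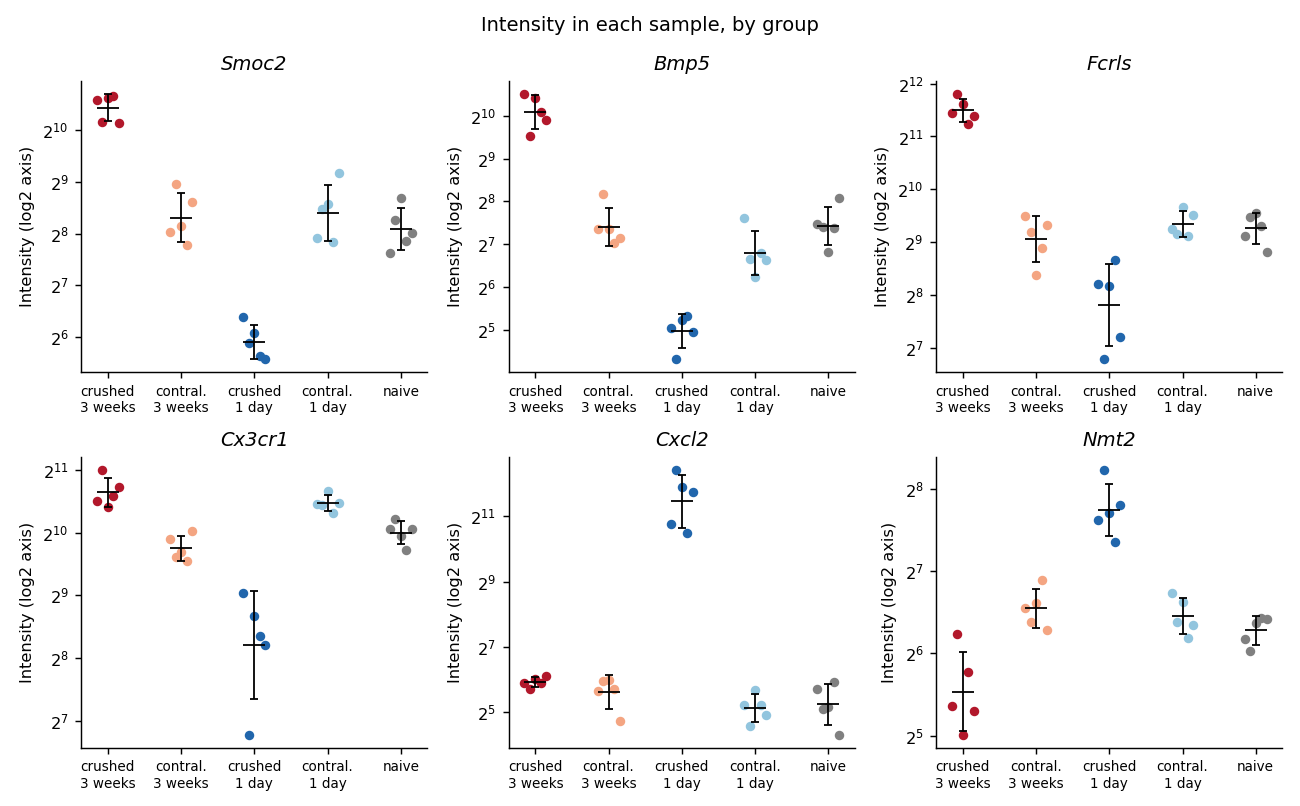
Intensity on a log2 axis in each of 5 samples of crushed and contralateral ONHs at 3 weeks, crushed and contralateral ONHs at 1 day, and naïve ONHs, with the mean and SD of log2 values in black (values below 20 are drawn at 20). For Smoc2, Bmp5 and Fcrls the crushed samples lie above the controls at 3 weeks and below them at 1 day, Cx3cr1 does so with a smaller rise, Cxcl2 is high only in crushed ONHs at 1 day, and Nmt2 runs the other way.

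Samples of the times in between entered neither effect, but shared the estimate of the spread. Their median crush effect moved through -1.37 (1 day), -0.30 (3 days), 1.04 (1 week) and 1.45 (3 weeks). At 3 days 13 of the 36 were above 0, and 5 were called higher and 6 lower, where 6.6% and 2.2% of all probe sets were. At 1 week 28 were above 0, and 17 were called higher and 1 lower, where 6.21% and 3.53% of all were. Thus 16 genes crossed 0 between 3 days and 1 week, 12 were above 0 at both times, 7 were below at both and Cidea was above 0 at 3 days alone. The early group included Fcrls, with 2.54 at 3 days and 2.52 at 1 week, Trem2, with 1.61 and 1.99 at these times, and Cbr2, a carbonyl reductase, with 1.48 and 0.92. Slc47a1 was still at -2.54 at 3 days and reached 1.39 at 1 week. Dsg2, a desmosomal cadherin, was the gene called lower at 1 week, at -1.10. At 3 months, in a batch of its own, 35 of the 36 genes had a crush effect above 0 (median 1.63) and 29 had at least 1, and 8 passed the test, where 0.207% of all probe sets were called higher. Bmp5 was at 2.80 there and Slc47a1, which was not called, at 2.88, while Adamts10, a protease that binds fibrillin, was at -1.22 and not called.

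**Figure D4:**
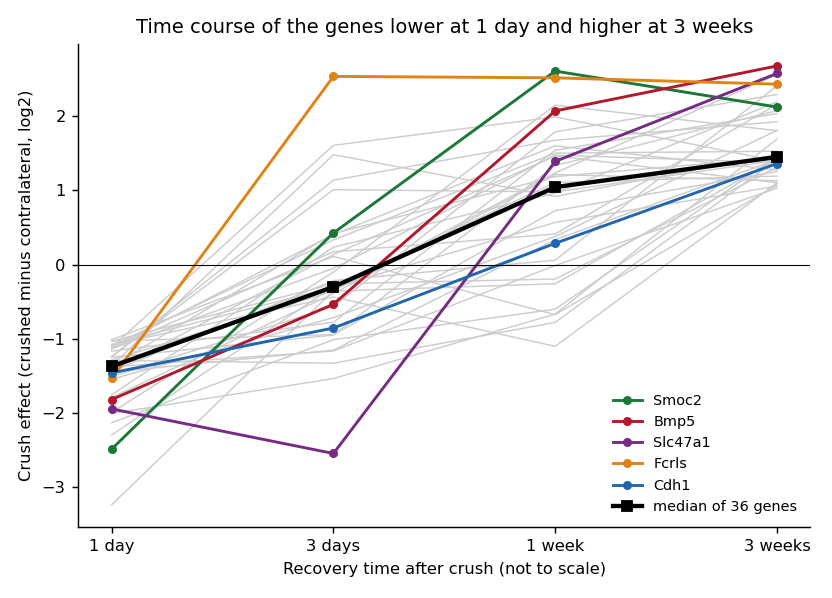
Crush effect (crushed minus contralateral, log2) of the 36 genes that were lower at 1 day and higher at 3 weeks, by time after the crush (axis not to scale). Grey lines are single genes, coloured lines 5 named genes and the black line the median, which was -0.30 at 3 days and 1.04 at 1 week.

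Of the 36 genes, 7 stood on a list of markers or pathways drawn up for these data. The share of all genes that stood on any list is not given here. The list of meningeal fibroblasts, with 21 of the 10768 genes tested, held 2 of the 7 (Slc47a1 and Ccn3). Of the 21 genes on this list 6 were called higher for the reversal and none lower, where 7.73% and 5.66% of all genes were called higher and lower, and the median reversal was 0.72, against 0.04 over all genes. The others called, with their reversals, were Clec3b (4.51), Slc6a13, a transporter for GABA and taurine (3.03), Ogn, the matrix protein osteoglycin (2.63), and Islr (1.23). The collagens Col1a1 (0.65) and Col1a2 (0.72) and the proteoglycans Dcn (0.75) and Lum (0.71) were under the 2-fold difference that a call needs. The summed intensity of the 21 genes was 127724 to 146266 in crushed and 106882 to 124806 in contralateral ONHs at 3 weeks, and 86090 to 101693 in crushed and 119017 to 139103 in contralateral ONHs at 1 day. This sum moved in the same direction as the sign-change genes, although the tissue was freed of the meningeal sheath. It includes Slc47a1 and Ccn3, 2 of the genes chosen for that movement, and was not computed without them. At 3 weeks the sides lay close, with a lowest crushed sum of 127724 and a highest contralateral sum of 124806. The part of meningeal fibroblasts in the values of the sign-change genes was not tested.

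Of 38 growth factors and their inhibitors, 12 were called higher for the reversal, where 7.73% of all genes were, and 4 lower, where 5.66% were, with a median of 0.53. Besides Bmp5 and Sfrp2, Gdf5, a ligand of the same family as Bmp5, had a crush effect of 2.22 at 3 weeks and -0.49 at 1 day, and a reversal of 2.71 (SE 0.42, adjusted p 4.0e-05). At 1 day Gdf5 was below the floor in 4 of 5 crushed and 2 of 5 contralateral samples, so that the size of its effect there is not resolved. Wnt2, a Wnt ligand, went the other way, with 2.04 at 3 weeks, 5.06 at 1 day and a reversal of -3.02 (SE 0.48, adjusted p 6.0e-05). Of 39 matrix genes 10 were called higher, where 7.73% of all genes were, and 2 lower, near the 5.66% of all genes (median 0.58). Postn, a matricellular protein of fibroblasts, had 1.28 at 3 weeks and -1.12 at 1 day, and Lama2, a laminin chain of basement membranes, 0.50 and -1.74. Thbs1, an adhesive glycoprotein induced early in wounds, had 0.42 at 3 weeks and 3.59 at 1 day, and its reversal was -3.17 (SE 0.54). Of 22 matrix metallopeptidases and inhibitors, 4 were higher and 6 lower, against the same shares of all genes. Mmp2, a gelatinase of stromal cells, had 1.40 at 3 weeks and -1.24 at 1 day, while Mmp9, the gelatinase of leukocytes, had -0.40 at 3 weeks and 3.40 at 1 day, for reversals of 2.64 (SE 0.46) and -3.80 (SE 0.56).

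Overshoots in the same direction as most sign changes numbered 53 genes, with medians of 0.61 at 3 weeks and -1.24 at 1 day. Cx3cr1, the fractalkine receptor of microglia, had 1456, 2052, 1363, 1539 and 1691 in crushed ONHs at 3 weeks, against 954, 784, 824, 749.8 and 1041 in contralateral ONHs. At 1 day crushed ONHs had 526, 109.8, 407, 328 and 295, against 1402, 1395, 1627, 1281 and 1431 in contralateral ONHs, and naïve ONHs had 1064, 1196, 990.4, 849.8 and 1065. The sides did not overlap at either time. The crush effect was 0.89 at 3 weeks and -2.27 at 1 day, and the reversal 3.16 (SE 0.33, adjusted p 6.6e-07). Hpgd, which inactivates prostaglandins, had 0.78 at 3 weeks and -2.22 at 1 day (reversal 2.99, SE 0.24), Fxyd7, a regulator of the sodium pump, 0.85 and -2.03 (2.88, SE 0.30), and Cdkn1c, an inhibitor of the cell cycle, 0.57 and -2.09 (2.65, SE 0.28). Of the 53 genes 6 were called above naïve ONHs at 3 weeks, where 3.71% of all probe sets were, and 43 below them at 1 day, where 7.07% were. The same crushed samples had served to choose these genes. At 1 week 25 of the 53 were above 0, and the median effect was -0.04.

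Overshoots in the other direction were 16 genes, with medians of -0.65 at 3 weeks and 1.26 at 1 day. Fcgbp, a mucin-like secreted protein, had 32.5, 61.6, 28.6, 84.2 and 21.9 in crushed ONHs at 3 weeks, against 62.9, 95.0, 74.3, 65.3 and 64.8 in contralateral ONHs. Crushed ONHs at 1 day had 304, 309, 398, 275 and 332, against 75.4, 94.3, 78.1, 80.4 and 57.0 in contralateral ONHs. The sides overlapped at 3 weeks and not at 1 day, and the reversal was -2.91 (SE 0.37, adjusted p 4.5e-06). Without replicate 4 of 3 weeks its effect there was -1.13 and was called. Timeless, a protein of the replication fork, had -0.66 at 3 weeks and 1.58 at 1 day, and Lgr6, a receptor for R-spondins, -0.85 and 1.34. Brca1, a DNA repair protein, had a crush effect of -0.84 at 3 weeks and 1.42 at 1 day, but neither crushed group was called against naïve ONHs. Without replicate 3 of 3 weeks its effect there was -1.02 and was called.

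Among the largest reversals downward were those of genes of macrophages and other leukocytes. Arg1, the arginase of activated macrophages, had 229.8, 154, 192, 159 and 228 in crushed ONHs at 3 weeks, against 95.0, 105, 124, 62.5 and 103 in contralateral ONHs. Crushed ONHs at 1 day had 7701, 8469.7, 8715, 6697 and 8905, against 54.7 to 64.8 in the 5 contralateral ONHs. The sides did not overlap at either time, and the crush effect of 0.99 at 3 weeks (adjusted p 0.0025) stood beside 7.02 at 1 day, for a reversal of -6.03 (SE 0.31, adjusted p 2.6e-10). The effect at 3 weeks was called, at 1.10 and 1.08, without replicates 2 and 3 of that time, and at 1.04 after quantile normalization. Chil3, a lectin-like protein of activated macrophages, had -0.07 at 3 weeks and 6.58 at 1 day, and its reversal of -6.65 (SE 0.69, adjusted p 5.1e-07) was the largest in size. Reversals of -5.92 (SE 0.55) for Slfn4, a schlafen of myeloid cells, -5.64 (SE 0.35) for Fosl1, an AP-1 subunit, -5.59 (SE 0.59) for the platelet chemokine Ppbp, -5.55 (SE 0.70) for Serpinb2, an inhibitor of plasminogen activators, and -5.39 (SE 0.61) for the protease inhibitor Slpi followed. Serpinb2 and Slfn4 lay below the floor in all contralateral samples at 1 day and in most samples at 3 weeks, so that the size of their reversals is not resolved.

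Cxcl2, a chemokine that attracts neutrophils, had 59.3, 52.9, 65.5, 59.2 and 68.7 in crushed ONHs at 3 weeks, against 50.5, 62.6, 63.4, 52.8 and 26.4 in contralateral ONHs. Crushed ONHs at 1 day had 1722, 5458, 3785, 1422 and 3411, against 37.5, 23.7, 51.8, 37.5 and 30.2 in contralateral ONHs. The sides overlapped at 3 weeks, and the reversal was -6.01 (SE 0.65, adjusted p 7.8e-07). Of 25 chemokines 14 were called lower, where 5.66% of all genes were, and the median reversal was -1.68. Another 2 (Ccl8 and Cx3cl1) were called higher, a share near the 7.73% of all genes. Of 20 acute cytokines 13 were lower and none higher, against the same shares of all genes (median -1.44). Among them were Il6 (-4.94, SE 0.37), Il11 (-4.47, SE 0.35) and Clcf1 (-4.30, SE 0.32), ligands that share the receptor gp130. Il6 lay below the floor in all contralateral samples of both times. It did so in 4 of 5 crushed samples at 3 weeks as well, so that the size of its reversal is not resolved. Of 14 neutrophil markers 11 were lower and none higher, against the same shares of all genes (median -3.17), with Clec4e at -4.96 and S100a9 at -3.93. Their summed intensity was 6120 to 13173 in crushed and 1547 to 2028 in contralateral ONHs at 3 weeks, and 25406 to 39008 in crushed and 1667 to 3019 in contralateral ONHs at 1 day. S100a9 still had a crush effect of 1.44 at 3 weeks (adjusted p 0.066). Clec4e lay below the floor in all contralateral samples at 1 day and in 3 of 5 at 3 weeks. The size of its reversal is therefore not resolved.

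Promoters of 4 genes that moved in opposite directions are shown with the letters of 2 motifs of early response factors, TGANTCA for AP-1 and, for kappaB, GGGA and TTCC parted by any pair of bases, searched on both strands. Slc4a10 and Bmp5 changed sign toward higher levels, and Cxcl2 and Il6 were high at 1 day and not at 3 weeks. The sequences, from RefSeq in GRCm38.p6, run 5′ to 3′ along the plus strand from 250 bases before to 50 bases after the annotated start, and capitals mark a match. They lie at chr2:62046265-62046564 (Slc4a10), chr9:75775115-75775414 (Bmp5), chr5:90903649-90903948 (Cxcl2) and chr5:30012864-30013163 (Il6).
Slc4a10: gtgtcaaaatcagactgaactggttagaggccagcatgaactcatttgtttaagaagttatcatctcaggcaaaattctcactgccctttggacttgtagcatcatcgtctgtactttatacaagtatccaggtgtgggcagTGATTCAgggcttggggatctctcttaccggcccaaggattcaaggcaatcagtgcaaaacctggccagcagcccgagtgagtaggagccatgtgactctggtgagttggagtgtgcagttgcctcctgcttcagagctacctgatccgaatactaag
Bmp5: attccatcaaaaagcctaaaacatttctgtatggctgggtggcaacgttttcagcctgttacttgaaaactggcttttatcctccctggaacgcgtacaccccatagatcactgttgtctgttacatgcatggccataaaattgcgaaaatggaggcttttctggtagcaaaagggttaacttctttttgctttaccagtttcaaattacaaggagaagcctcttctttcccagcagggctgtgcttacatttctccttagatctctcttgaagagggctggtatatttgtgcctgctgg
Cxcl2: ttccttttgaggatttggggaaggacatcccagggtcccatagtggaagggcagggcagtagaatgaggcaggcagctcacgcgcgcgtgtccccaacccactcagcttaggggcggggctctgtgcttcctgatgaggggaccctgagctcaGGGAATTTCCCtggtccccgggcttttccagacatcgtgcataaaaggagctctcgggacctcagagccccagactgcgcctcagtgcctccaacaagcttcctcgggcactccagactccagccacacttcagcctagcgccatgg
Il6: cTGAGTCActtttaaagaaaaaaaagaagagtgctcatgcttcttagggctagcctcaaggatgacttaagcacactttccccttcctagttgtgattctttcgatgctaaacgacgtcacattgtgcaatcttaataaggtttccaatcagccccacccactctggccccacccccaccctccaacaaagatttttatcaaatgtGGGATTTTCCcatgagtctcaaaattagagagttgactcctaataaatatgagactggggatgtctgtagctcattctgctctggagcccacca
The window of Slc4a10 holds an AP-1 match, that of Bmp5 neither, that of Cxcl2 2 overlapping kappaB matches and that of Il6 1 of each. AP-1 letters stood in 3 of the 22 sign-change genes with a promoter in the table (13.6%), in 35 of 285 genes that were higher at 1 day and returned (12.3%) and in 7.9% of all 27025. KappaB letters stood in 0 of the 22, in 9 of the 285 (3.2%) and in 1.4% of all. A match of letters is a description of the window and not evidence of a bound site.

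Of 28 genes of DNA replication 20 were called lower for the reversal, where 5.66% of all genes were, and none higher (median -1.44), and their median crush effect was 0.04 at 3 weeks and 1.57 at 1 day. Mcm5, a subunit of the replicative helicase, had 0.23 at 3 weeks and 3.37 at 1 day (reversal -3.14, SE 0.41). Of 29 mitosis genes 13 were lower and 16 not called (median -0.94). Their effects were largest in between, with medians of 0.88 (1 day), 4.09 (3 days), 2.34 (1 week) and 0.07 (3 weeks), and the reversal compares only the ends of this course. Of 25 ribosome biogenesis genes 12 were lower, none higher and 13 not called (median -1), such as Nop58, a core protein of small nucleolar particles, at 0.17 at 3 weeks and 1.58 at 1 day. Of 32 immediate early and stress factors 5 were lower and 27 not called, among them Myc at 0.67 at 3 weeks and 3.44 at 1 day.

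Some early responses kept their direction while they shrank. A reversal, in either direction, was called for 36 of the 113 genes kept higher and for 11 of the 120 kept lower. Over all probe sets 12.8% had one, and most kept genes did not. Among genes higher at both times, Ereg, a ligand of the epidermal growth factor receptor, had 138, 69.2, 85.4, 128 and 75.4 in crushed ONHs at 3 weeks, against 26.6, 56.6, 66.9, 30.8 and 15.4 in contralateral ONHs. In crushed ONHs at 1 day it had 1885, 2730.2, 2016, 1526 and 2128, against 10.0, 34.7, 3.7, 17.4 and 30.4 in contralateral ONHs. The sides did not overlap at either time, and the crush effects of 1.40 at 3 weeks and 6.38 at 1 day gave a reversal of -4.98 (SE 0.43, adjusted p 7.2e-08). Below the floor lay 1 contralateral sample of 3 weeks and 3 of 1 day, and at a floor of 50 the effect at 3 weeks was 0.81 and was not called. Acod1, which makes itaconate in macrophages, had 1.40 and 5.46 at these times, but was lower in the crushed ONH of 1 pair at 3 weeks (-0.32). Its call at 3 weeks was lost without replicates 1, 2, 4 or 5 of that time (1.5, 0.96, 1.38 and 1.33, adjusted p 0.059 to 0.18), with no filter (adjusted p 0.052) and at a floor of 50 (0.68). Il1rn, the interleukin-1 receptor antagonist, had 1.66 at 3 weeks and 5.61 at 1 day. Among genes lower at both times, Arvcf, a catenin of cell junctions, had -1.08 at 3 weeks and -3.15 at 1 day (reversal 2.07, SE 0.28), Hhatl, related to hedgehog acyltransferase, -1.18 and -3.32, and Slc38a5, a glutamine transporter, -1.14 and -3.17. At 3 weeks Arvcf was not called without replicates 1 or 5 (-0.98 and -0.95), nor Slc38a5 without replicates 3 or 5 (-1.09 and -0.95, adjusted p 0.052 and 0.082). Contralateral Arvcf was 1451, 1268, 1172, 1515 and 1236 at 3 weeks and 1941, 2440.0, 2419, 2439.7 and 2426 at 1 day, a difference of -0.81 that was too small for a call.

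Of 28 astrocyte markers 12 were called higher for the reversal, where 7.73% of all genes were, none lower and 16 not called (median 0.73), and the median crush effect was -0.24 at 3 weeks and -0.90 at 1 day. Aqp4, the water channel of astrocyte endfeet, had 7073, 9708, 7438, 7316 and 7814 in crushed ONHs at 3 weeks, against 8019, 8115, 8136, 7341 and 8653 in contralateral ONHs. At 1 day it had 5037, 2768, 3412, 2803 and 2301 in crushed ONHs, against 8181, 8739.7, 8715, 8483 and 8291 in contralateral ONHs. The sides overlapped at 3 weeks and not at 1 day, for a reversal of 1.39 (SE 0.18, adjusted p 4.9e-06). Larger reversals were those of Nkain4, an interactor of the sodium pump (3.66, SE 0.32), Lgi1, a secreted synaptic protein (3.55, SE 0.43), and Ntsr2, a neurotensin receptor of astrocytes (3.49, SE 0.32). Gfap (0.12) and Slc1a2, the glutamate transporter (-0.75), did not pass the test. Of 31 genes of reactive astrocytes 5 were lower, where 5.66% of all genes were, and none higher. Tgm1, a transglutaminase, had a crush effect of 1.95 at 3 weeks and 5.66 at 1 day.

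Of 23 solute carriers of glia and barriers 12 were called higher, where 7.73% of all genes were, 1 lower, near the 5.66% of all genes, and 10 not called (median 1.04). Slco1a4, which carries organic anions across brain vessels, had a crush effect of -0.39 at 3 weeks and -3.74 at 1 day (reversal 3.35, SE 0.53), and Slc22a6, an organic anion exchanger, -0.49 and -3.21 (2.72, SE 0.41). The 1 lower was Slc7a11, the cystine transporter, with a reversal of -1.24. Of 32 genes of drug and glutathione metabolism 15 were higher and none lower (median 0.88), with Adh1, an alcohol dehydrogenase, at 0.53 at 3 weeks and -2.51 at 1 day, and Gstm2, a glutathione transferase, at 0.57 and -1.45. Of 27 ion channel genes 10 were higher and none lower (median 0.84), with Gabrb1, a subunit of the GABA-A receptor, at -0.37 and -3.33. Clec3b, which encodes tetranectin, had 526, 583, 690.3, 539.9 and 860.5 in crushed ONHs at 3 weeks, against 328, 726, 493, 535 and 852 in contralateral ONHs. In crushed ONHs at 1 day it had 5.8, 45, 17.9, 3.2 and 28.1, of which 3 were below the floor, against 656, 333, 486, 527 and 598 in contralateral ONHs. The sides overlapped at 3 weeks only, and the reversal was 4.51 (SE 0.44, adjusted p 3.1e-07).

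**Figure D5:**
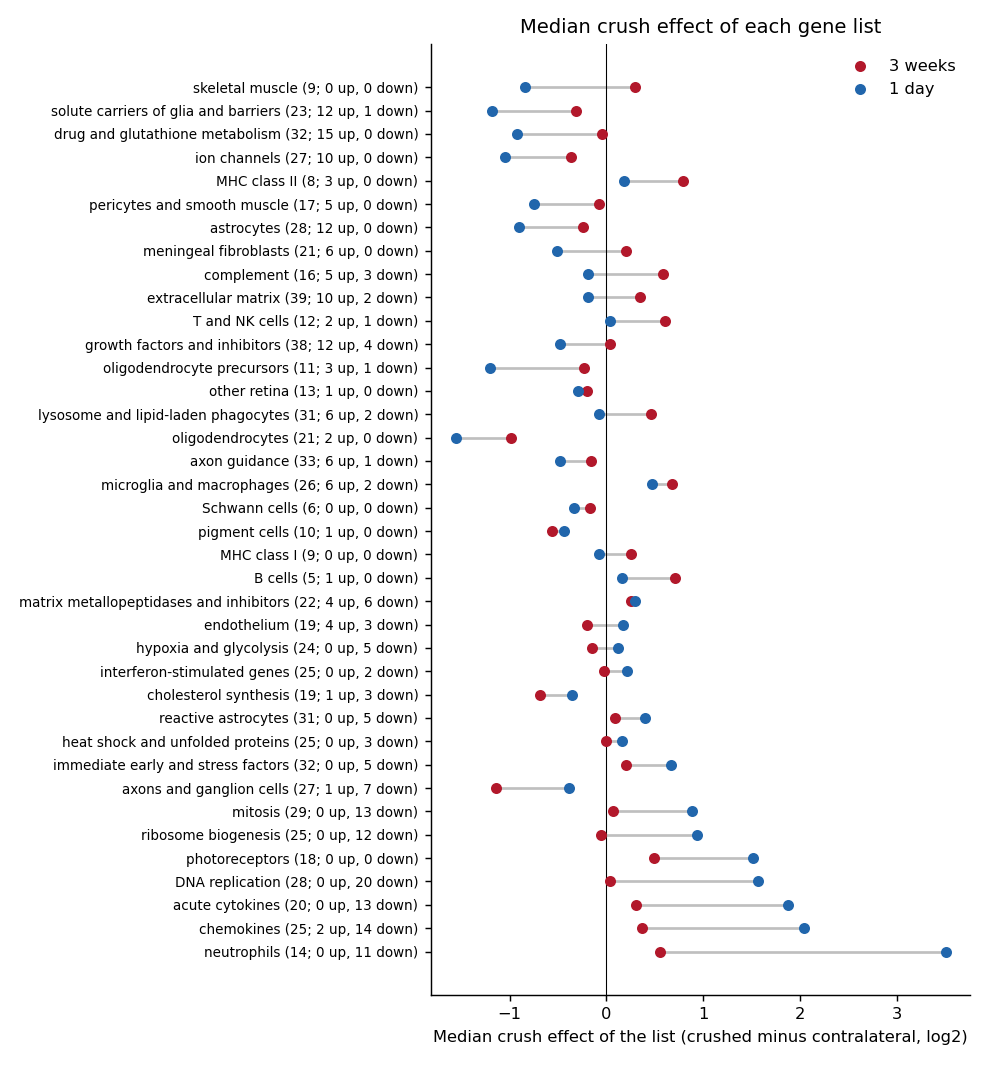
Median crush effect (crushed minus contralateral, log2) of the genes on each list at 3 weeks (red) and at 1 day (blue), ordered by the median reversal, with the number of genes tested and the number called higher (up) and lower (down) for the reversal in brackets. Neutrophil markers and chemokines lie at the bottom, with medians of 0.55 and 0.37 at 3 weeks and 3.51 and 2.04 at 1 day, and oligodendrocyte markers stay below 0 at both times.

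Of 21 oligodendrocyte markers 2 were called higher for the reversal, a share near the 7.73% of all genes, Aspa (1.73, SE 0.23), an enzyme of acetylaspartate, and Olig1 (1.26, SE 0.36), a transcription factor, and the median crush effect was -0.99 at 3 weeks and -1.56 at 1 day. Of 27 axon and ganglion cell genes 7 were called lower, where 5.66% of all genes were, 1 higher and 19 not called (median -0.76). Nefh, the heavy neurofilament, had 25.5, 13.9, 39.7, 17.3 and 6.3 in crushed ONHs at 3 weeks, against 685, 755, 945, 559 and 466 in contralateral ONHs. Crushed ONHs at 1 day had 1433, 865, 1492, 3252 and 2185, against 1566, 1665, 982, 1963 and 1593 in contralateral ONHs. The sides overlapped at 1 day and not at 3 weeks, and the reversal was -4.92 (SE 0.44, adjusted p 1.1e-07). Contralateral Nefh was itself called lower at 3 weeks than at 1 day, with a difference of -1.20. Sptbn4, which anchors channels at nodes of Ranvier, had a reversal of -4.57 (SE 0.34), and its contralateral difference was -1.67, also called. In the 3 crushed samples of 3 weeks where Nefh was below the floor, the fall is understated. Sptbn4 was below the floor in all 5 crushed samples of 3 weeks, so that the size of its reversal is not resolved.

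Of 26 microglia and macrophage markers 6 were called higher, where 7.73% of all genes were, and 2 lower, near the 5.66% of all genes, and the median reversal was 0.17, against 0.04 over all genes. Cx3cr1, Trem2, C1qc (1.58, SE 0.18), a chain of complement C1q, Aif1, C1qa and Ly86 were higher, and the scavenger receptor Msr1 (-2.97, SE 0.41) and the integrin Itgam (-1.53, SE 0.27) were lower. Their summed intensity was 99660 to 127310 in crushed and 65889 to 76648 in contralateral ONHs at 3 weeks, and 80474 to 116223 in crushed and 75931 to 86754 in contralateral ONHs at 1 day. Of 31 lysosome and lipid genes of phagocytes 6 were called higher, where 7.73% of all genes were, and 23 not called, with a median of 0.29. Another 2 were lower, a share near the 5.66% of all genes. Apoc4, an apolipoprotein, had 733, 1550.4, 381, 422 and 1091 in crushed ONHs at 3 weeks, against 34.5, 42.9, 30.5, 47.5 and 45.2 in contralateral ONHs, and was below the floor in all crushed samples at 1 day. Its reversal was 4.69 (SE 0.43, adjusted p 1.6e-07), that of its neighbour Apoc1 3.69 (SE 0.33) and that of Lpl, lipoprotein lipase, 1.62 (SE 0.43). Of 8 MHC class II genes 3 were higher (H2-Eb1, H2-Oa and H2-Aa) and none lower, against the same shares of all genes. Of 12 T and NK cell markers 2 were higher (Cd3e and Cd3d), 1 lower (Gzma, the granzyme of killer cells, at -3.33) and 9 not called. These counts are small beside the 7.73% and 5.66% of all genes called higher and lower. Cd3e, a CD3 chain of the T cell receptor complex, had 2.13 at 3 weeks and -0.09 at 1 day (reversal 2.21, SE 0.46).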

How the data were processed

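The deposited values are linear intensities. The authors hybridized RNA to Affymetrix Mouse Genome 430A 2.0 arrays, normalized them in DChip by the invariant set method and derived one intensity for each probe set from a model of perfect match minus mismatch signals. No further scaling was applied. After 64 control probe sets were left out, 22626 remained, values were set to at least 20 (8.1% to 11.4% of an array), and the 19313 with 5 of 40 arrays at 50 or more were tested. Dim genes are thereby understated. Log2 values of the 40 crushed and contralateral arrays from 1 day to 3 weeks were fitted in limma 3.58.1 (R 4.3.3) with eBayes and a trend, with a block for every pair and separate crush terms for the 4 times. The reversal is the contrast of 2 crush terms. Calls need a Benjamini-Hochberg adjusted p under 0.05 and a log2 difference of at least 1, and adjusted p without another name are those of limma. The study paired left and right eyes of the same mice, and samples with one replicate number were taken as these pairs, which the sources do not state. Correlations of paired deviations were mixed, at -0.0887 to 0.558 at 3 weeks and -0.277 to 0.188 at 1 day. Crushed, contralateral and naïve levels were set against each other without pairing, over the 45 arrays of the first batch, and the 10 arrays of 3 months were fitted on their own.

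Of the probe sets, 20380 carry 1 gene symbol, 691 several and 1555 none, and a gene was taken by its brightest. Named genes are the 10 largest sign changes in each direction, the 8 largest reversals in each direction among called genes whose pairs did not overlap between times, the 4 largest overshoots and the 3 largest kept genes in each direction, and up to 4 called members of each list. Others were named after their values were seen. The members and lists were chosen with earlier results of these data known. The fits were tested on simulated data. Python 3.11.15 and matplotlib 3.10.9 drew the figures.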

Additional observations from a re-analysis of the deposited data

Results flagged for a closer look

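The crush effect differed between 3 weeks and 1 day by a test of the difference itself for 2473 probe sets. Among the sign-change genes the difference, on the log2 scale, was 5.79 for Sfrp2, 4.61 for Smoc2, 4.52 for Slc47a1, 4.49 for Bmp5, 3.96 for Fcrls, 3.95 for Aoc3, 3.85 for Dmgdh, 3.80 for Slc4a10, 3.79 for Aspn, 3.70 for Tfcp2l1 and -2.30 for Nmt2.

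In 5 of 70 groups of 5 pair differences, 1 pair stood apart from the others by Dixon's test, which chance alone does in about 1 of 20 groups. Bmp5 had 1.36 in pair 2 at 3 weeks, where the other 4 pairs had 2.75 to 3.15. Clec3b had -2.89 in pair 2 at 1 day, where the others had -5.04 to -4.41. At 3 weeks Slfn4 had 0.79 in pair 1, Serpinb2 0.75 in pair 3 and Slpi 1.66 in pair 3, each above the other pairs of the same gene. For Serpinb2 the other 4 pairs were below the floor on both sides. All 5 genes were named for a large reversal, a choice that itself required that the pairs of the 2 times not overlap.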

How the results depend on the processing

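The reversals of the 35 genes named for a sign change, a large reversal, an overshoot or a kept response had the same direction and stayed called in all 729 values computed under the alternatives. The calls at single times, which define the patterns, were less stable. They changed in at least 1 alternative for 12 of the 35 genes, and did so 5 times for Sfrp2, 5 for Nmt2 and 6 for Acod1, as given beside these genes. Apoc4 gained a call at 1 day, at -1.16, with a floor of 1. Without the replicate block, with samples unpaired, the reversal was called for 2470 probe sets, 1307 higher and 1163 lower, and 52 of the 53 sign changes remained. With a pair left out in turn, 2214 to 2550 probe sets were called (1128 to 1409 higher, 1086 to 1189 lower), sign changes toward higher levels numbered 43 to 58 and those toward lower levels 2 to 4 (4 without replicate 2, 4 or 5 at 3 weeks), and calls at 3 weeks were 425 to 502 higher and 295 to 433 lower, and at 1 day 1321 to 1391 higher and 1285 to 1583 lower. The small count of 2 toward lower levels was 1 at a floor of 50, 1 under a stricter filter on dim probe sets and 1 with the photoreceptor level as a covariate. Of all 53 sign changes, 40 remained at a floor of 50 and 44 under the stricter filter. With the covariate 52 were found, of which 48 were among the 53. Without a demand on the fold, 7183 reversals were called (3557 higher and 3626 lower), 373 and 241 sign changes, 2008 and 2332 probe sets at 3 weeks and 4981 and 5417 at 1 day, in the order higher and lower. Under the 3 criteria of the methods, on linear values with the methods' paired test and no correction, 9 sign changes toward higher levels, all among the 51, and 0 toward lower levels were left, with 162 higher and 93 lower at 3 weeks and 793 higher and 661 lower at 1 day. Quantile normalization shifted the reversals of single probe sets by a median of -0.0137, and setting the arrays to a common median shifted them by a median of -0.0272. Falls of dim genes are cut short by the floor, and the spread of contralateral samples limits Sfrp2.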
